A study of Mus musculus with 12 samples.

Results

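Acetylation of histone H3 at lysine 27 (H3K27ac) was compared between lung endothelial cells of CSE knockout (CSE-KO) mice and of wild-type (WT) mice. The data are 4 of the 12 libraries of the series, made by ACT-seq, in which an antibody carries the Tn5 transposase to chromatin that bears the mark. In the sample titles 2 libraries are CSE-KO and Cre-positive and 2 are WT and Cre-negative, so that Cre and the loss of CSE cannot be told apart. The sources used here do not give the Cre driver, the allele or the age of the mice, and do not say whether the 2 replicates of a genotype came from separate animals. The p-values therefore measure only how far these libraries spread, a spread that may be technical. A region was kept when it had 10 or more counts in at least 2 of the 4 libraries, which held for 23593 of the 1192075 regions in the table. Each region stands in the list of 1 library, taken from the number in its name. Of the kept regions, 11539 stood in the lists of the 4 H3K27ac libraries and 12054 in the lists of the H3K23ac and H3K4me3 libraries.

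H3K27ac is written by histone acetyltransferases such as CREBBP and is removed by histone deacetylases. It marks active promoters, which also carry H3K4me3, and active enhancers, where H3K4me3 is low. CSE (cystathionine gamma-lyase, gene Cth) releases cysteine from cystathionine and is a source of hydrogen sulfide in the endothelium. The acetyl group of the mark comes from acetyl-CoA, the pool in which the breakdown of nutrients and the acetylation of histones meet. The comparison asks whether H3K27ac in these cells depends on CSE. The table gives regions no position and no gene, so no promoter, sequence or endothelial marker gene was analysed here, nor the Cth gene itself.

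The libraries differed in depth. CSE-KO replicate 1 held 4242014 counts, and the other 3 held between 1110254 and 1351854. The kept regions took 16.3% to 19.1% of the counts of a library. Their median count was 9 in WT replicate 1, 8 in WT replicate 2, 24 in CSE-KO replicate 1 and 10 in CSE-KO replicate 2. Of the regions in its own list, WT replicate 1 had no count at 76.3%, WT replicate 2 at 75.5%, CSE-KO replicate 2 at 72.3% and CSE-KO replicate 1 at 42.5%. How reads that overlap several regions were counted is not given in the sources used here, and its part in the levels was not tested. To allow for the deep library, its counts were also thinned at random to the 1286295 counts of CSE-KO replicate 2, and the rule was applied again, which kept 11127 regions, all of them among the 23593.

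Few of the kept regions were well covered in every library. All 4 libraries reached 10 counts at 2497 regions (10.6%), and exactly 2 libraries did so at 16219. CSE-KO replicate 1 was among the libraries that reached 10 counts at 23459 regions (99.4%), so membership rested largely on that library. The 2 CSE-KO libraries alone reached 10 counts at 5540 regions (23.5%), and the 2 WT libraries alone at 48 (0.203%). With CSE-KO replicate 1 thinned this contrast was smaller, with 1407 regions (12.6%) reached by the CSE-KO pair alone and 661 (5.94%) by the WT pair alone. Pairs of 1 WT and 1 CSE-KO library alone reached 10 counts at 855 to 1265 regions each after thinning. A region that was kept through the pair of 1 genotype had to differ between the genotypes in raw counts, though not in depth-scaled level. These numbers of regions thus describe the rule and give no test of CSE.

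**Figure D1:**
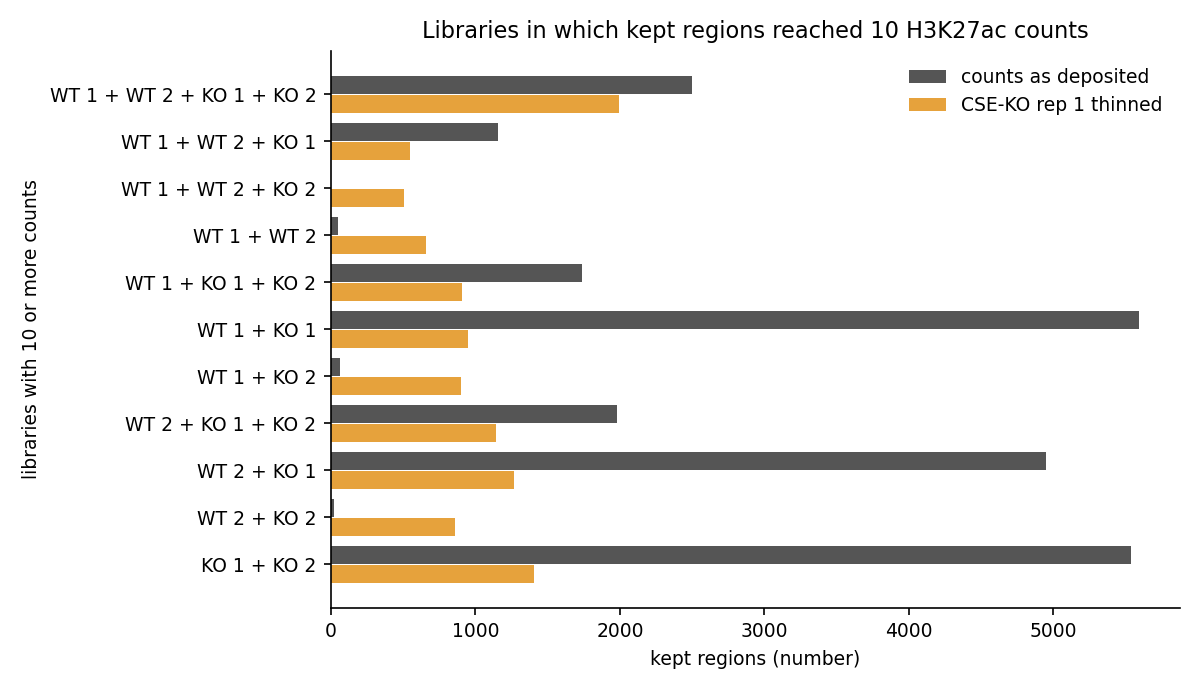
Number of kept regions (x axis) by the set of H3K27ac libraries that reached 10 counts (y axis, KO for CSE-KO), before and after thinning of CSE-KO replicate 1. As deposited, 5540 regions were kept through the CSE-KO pair alone and 48 through the WT pair alone, and after thinning 1407 and 661.

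H3K27ac rose at 7 regions (0.0297%) and fell at 10 regions (0.0424%) in CSE-KO against WT, 17 of 23593 in all (edgeR's quasi-likelihood test, two-sided, Benjamini-Hochberg adjusted p under 0.05). With CSE-KO replicate 1 thinned and the rule applied again, edgeR called 0 of 11127 regions, with a lowest adjusted p of 0.23. On the same thinned counts with the 23593 regions left as they were, it called 11, all of them among the 17, 5 higher and 6 lower. The share called was 0.0721% of the regions tested as deposited and 0.0% after thinning. At an unadjusted p under 0.05 edgeR had 822 regions as deposited (3.48%), 475 higher (2.01%) and 347 lower (1.47%) in CSE-KO, and 437 after thinning (3.93%), 183 higher (1.64%) and 254 lower (2.28%). When TMM factors came from the lists of the other marks alone, the median of all log2 fold changes moved from -0.06 to 0.07, the calls were 8 higher and 5 lower, and the unadjusted split was 721 higher to 224 lower. Among the 2497 regions with 10 counts in all 4 libraries, fitted alone, edgeR called 0, with 44 higher and 149 lower at an unadjusted p under 0.05 and a lowest adjusted p of 0.0542. DESeq2's Wald test called 0 of the 23593 regions, with 257 at an unadjusted p under 0.05.

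The calls also turned on single libraries, although leaving out a library also changed which regions met the rule. Each such fit leaves a genotype with a single library, which is assumed to vary like the other group. Of the 17 regions, 7 were still tested when replicate 1 of CSE-KO was left out, and 10 when it was replicate 2. All of these were regions that fell. The 7 that rose no longer met the rule there, so these fits did not retest them. Without CSE-KO replicate 1 edgeR called 0 of 7506 regions (142 at an unadjusted p under 0.05), and without CSE-KO replicate 2 it called 0 of 17969 (79). Without WT replicate 1 it called 84, and without WT replicate 2 it called 187. Of the 17 regions, 5 of the 12 tested without WT replicate 1 and 15 of the 15 tested without WT replicate 2 were among the calls. The fit as deposited gave every region the spread of the trend at its level, with a biological coefficient of variation of 41.9%, so a called region could still differ widely between replicates.

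Among the regions that rose, peak9_212007 of the CSE-KO H3K27ac replicate 1 list was without a count in WT, while the CSE-KO libraries held 91 and 30. Its CSE-KO level was 131 ± 2.75 CPM (the usual count scaled to sequencing depth, here with a library's TMM-adjusted total in kept regions as the base; SD, n = 2), at least 18.9-fold higher than WT set at a floor of 3 counts for both libraries together (edgeR adjusted p = 5.67e-07). The groups do not overlap, and the CSE-KO replicates were nearly level with each other. The region peak9_158291 of the same list also had no WT count, against 108 and 22 counts in CSE-KO. Its CSE-KO level of 126 ± 44.7 CPM (SD, n = 2) was at least 18.2-fold higher than the same floor (edgeR adjusted p = 5.67e-07), with CSE-KO replicate 1 the higher of the pair. Neither region had a single count in the 8 libraries of H3K23ac and H3K4me3. After thinning, CSE-KO replicate 1 kept 21 and 34 counts at them, and the fitted log2 differences were 7.61 and 7.73, against 8.47 and 8.44 before, values that depend on the fit since WT is at 0. The edgeR adjusted p was 0.23 for both over the 11127 regions, and 6.1e-06 and 3.39e-06 on the same thinned counts over the 23593 regions. Over the alternatives in which they were tested the adjusted p ran from 2.21e-07 to 0.49 for peak9_212007 and to 0.503 for peak9_158291, and DESeq2 gave 0.135 for each.

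The third region without any WT count stood in the list of CSE-KO H3K23ac replicate 2. It had 45 and 15 counts in CSE-KO, and its level of 65.3 ± 0.858 CPM (SD, n = 2) was at least 9.37-fold higher than the WT floor (edgeR adjusted p = 0.0116). In the other marks, its only counts were 73 in CSE-KO H3K23ac replicate 2, the library whose list holds it. At 3 further regions WT held 1 or 2 counts in all. One, of the CSE-KO H3K27ac replicate 1 list, had WT counts of 1 and 0 and CSE-KO counts of 57 and 15, a depth-scaled ratio of 33.9 with an exact binomial 95% interval of 5.89 to 1360. The other two had 0 and 2 counts in WT. In CSE-KO they had 57 and 16 counts (CSE-KO H3K27ac replicate 2 list, ratio 17.2, interval 4.59 to 145) and 57 and 13 counts (CSE-KO H3K27ac replicate 1 list, ratio 16.5, interval 4.4 to 139). Such intervals cover counting error alone, and reads copied by PCR are not independent molecules. The edgeR adjusted p of these 3 regions lay between 0.0116 and 0.0377.

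The last region that rose was the most strongly marked of the 7. It stood in the list of CSE-KO H3K23ac replicate 2, with WT counts of 1 and 9 and CSE-KO counts of 100 and 37. Its level went from 23.2 ± 26.3 to 153 ± 9.27 CPM (SD, n = 2 each), a log2 fold change of 2.70 with a standard error of 0.65 (edgeR adjusted p = 0.0448). Its H3K23ac counts were also all in CSE-KO, at 61 and 24, against 0 and 0 in WT, and it had no H3K4me3 count. A region of the CSE-KO H3K23ac replicate 1 list that was not called showed a like distribution. It had CSE-KO counts of 41 and 12 for H3K27ac and none in WT (edgeR adjusted p = 0.0805). There the other marks too had counts in CSE-KO alone, H3K23ac with 67 and 7 and H3K4me3 with 11 and 6. All 7 regions that rose were kept after thinning, where their unadjusted p ran from 4.92e-05 to 0.0157 in edgeR and their adjusted p from 0.23 to 1.

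**Figure D2:**
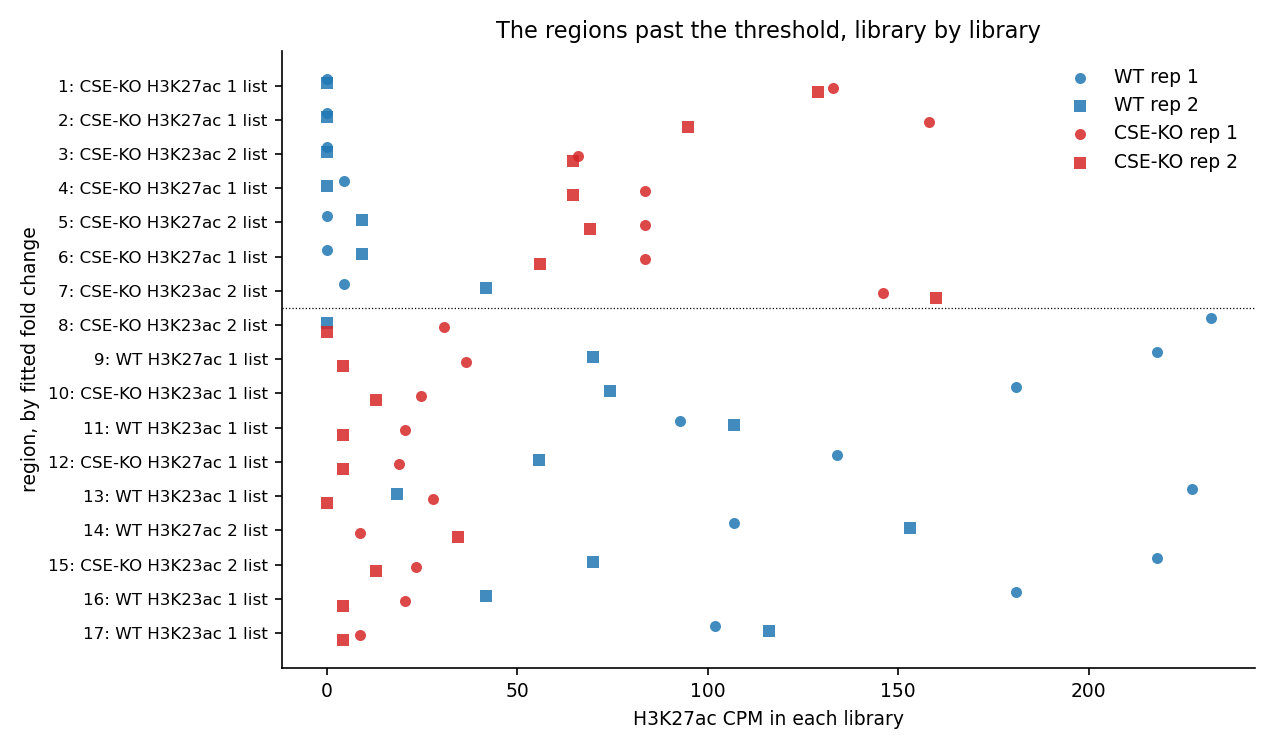
H3K27ac level (CPM, x axis) in each of the 4 libraries at the 17 regions past the threshold, ordered by fitted fold change, with 7 higher in CSE-KO above the dotted line and 10 lower below it; each row gives the list in which the region stands. The CSE-KO points lie to the right of the WT points in all 7 upper rows, and WT replicate 1 stands far from WT replicate 2 in several lower rows.

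Of the regions that fell, peak1_20257 of the WT H3K23ac replicate 1 list was the most even between replicates. The WT libraries held 22 and 25 counts there and the CSE-KO libraries 6 and 1, although CSE-KO replicate 1 was sequenced more deeply than either WT library. Its level fell from 109 ± 10.1 to 6.55 ± 3.16 CPM (SD, n = 2 each), which is -3.81 on the log2 scale (standard error 0.69, edgeR adjusted p = 0.000322). The other marks leaned the same way here: H3K4me3 had WT counts of 15 and 14 and CSE-KO counts of 2 and 0, and H3K23ac had WT counts of 53 and 0 and none in CSE-KO. WT H3K23ac replicate 1 is the library of this list, and its count is favoured by that. After thinning, CSE-KO replicate 1 kept 1 count, and the fitted difference was -4.53 (log2, standard error 0.69, edgeR adjusted p = 0.23).

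A second region of the WT H3K23ac replicate 1 list leaned toward WT in H3K27ac and H3K4me3. For H3K27ac the WT libraries held 20 and 23 counts and the CSE-KO libraries 14 and 1, which gave levels of 99.8 ± 10.1 and 12.4 ± 11.4 CPM (SD, n = 2 each). The difference was -2.70 (log2, standard error 0.63, edgeR adjusted p = 0.0346). H3K4me3 had WT counts of 10 and 31 and CSE-KO counts of 8 and 2. H3K23ac had WT counts of 54 and 2 and CSE-KO counts of 0 and 2. The 54 counts are from the library of this list and are favoured by that, and the other H3K23ac libraries showed no lean. A region of the WT H3K27ac replicate 2 list also fell with both WT libraries well above CSE-KO, from 23 and 33 counts in WT to 6 and 8 in CSE-KO, or from 130 ± 33.2 to 21.6 ± 18.2 CPM (SD, n = 2 each; edgeR adjusted p = 0.0228). There the other marks did not follow, with 14 H3K4me3 counts in CSE-KO replicate 1 and none elsewhere.

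In the other 7 regions that fell, WT replicate 1 had more counts than WT replicate 2. The region peak8_95235 of the CSE-KO H3K23ac replicate 2 list had WT counts of 47 and 15 and CSE-KO counts of 16 and 3, at levels of 144 ± 105 and 18.2 ± 7.42 CPM (SD, n = 2 each). The difference was -2.85 (log2, standard error 0.62, edgeR adjusted p = 0.0156), and without WT replicate 1 it was -1.72. The WT values thus lay far apart, although both stood above CSE-KO. At 2 regions the groups overlapped: one of the WT H3K23ac replicate 1 list, with WT counts of 49 and 4 and CSE-KO counts of 19 and 0, and one of the CSE-KO H3K23ac replicate 2 list, with WT counts of 50 and 0 and CSE-KO counts of 21 and 0. At both, replicate 1 of each genotype held nearly all of the counts. Neither met the rule after thinning.

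The remaining 4 regions that fell had WT counts of 39 and 9 against CSE-KO counts of 14 and 1 (WT H3K23ac replicate 1 list), 39 and 16 against 17 and 3 (CSE-KO H3K23ac replicate 1 list), 29 and 12 against 13 and 1 (CSE-KO H3K27ac replicate 1 list) and 47 and 15 against 25 and 1 (WT H3K27ac replicate 1 list). In each of them both WT levels in CPM stood above both CSE-KO levels, and the lower WT library was replicate 2. The region of the CSE-KO H3K23ac replicate 1 list went against its own library's H3K23ac, which had 197 counts there. Over the 10 regions that fell, the mean CPM ran from 95.1 to 144 in WT and from 6.55 to 21.6 in CSE-KO, and all 10 were among the 5898 kept regions of highest level (47.3 CPM and above). Of the 10, 7 were kept after thinning, with unadjusted p from 5.19e-05 to 0.00374 and adjusted p from 0.23 to 1 in edgeR.

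Groups that do not overlap are common in these data. The CPM of both CSE-KO libraries stood above both WT libraries at 4407 of the 23593 kept regions (18.7%), and below both at 3262 (13.8%). After thinning the shares were 17.8% and 15.3% of 11127. The 17 called regions were picked by the test for a difference, so that 15 of them, all 7 that rose and 8 of the 10 that fell, have groups that do not overlap is a description only. 

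**Figure D3:**
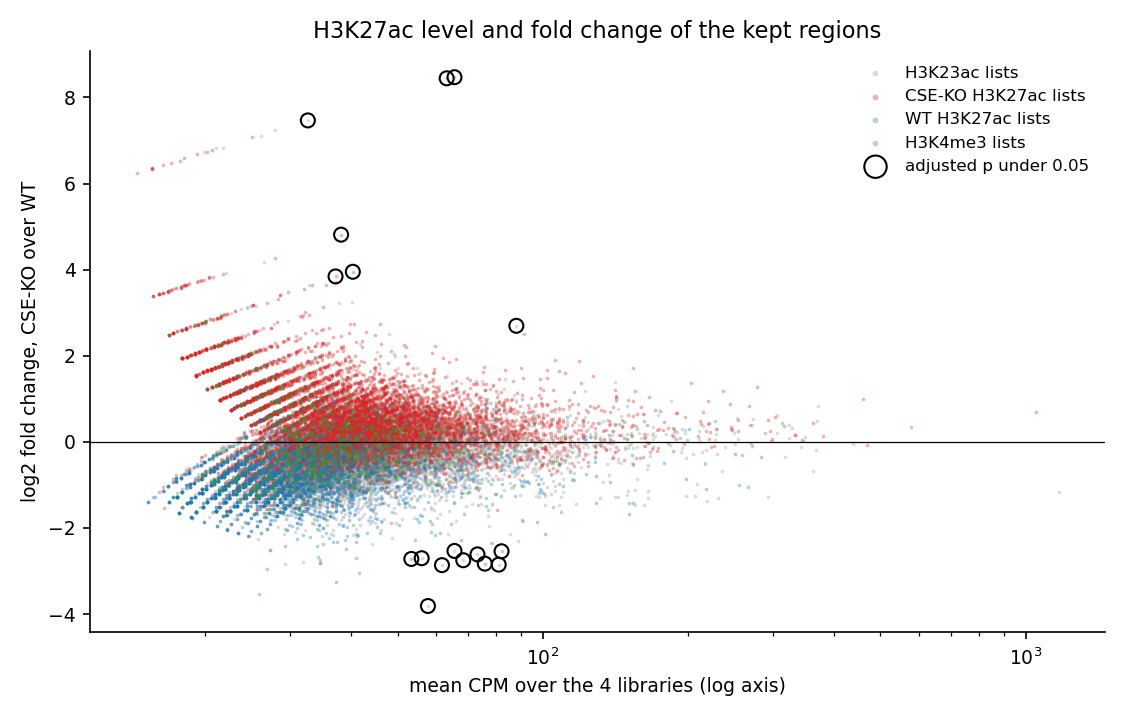
Log2 fold change of H3K27ac (CSE-KO over WT, y axis) against the mean CPM over the 4 libraries (log x axis) for the 23593 kept regions, coloured by list, with the 17 regions at an adjusted p under 0.05 circled. Lines of points at low level come from small whole counts, and the fitted folds of regions without WT counts depend on the fit; the circled regions lie at 8.47 to 2.70 and at -2.53 to -3.81.

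The most strongly marked regions did not pass the threshold. The highest mean level belonged to a region from the list of WT H3K23ac replicate 1, with WT counts of 544 and 156 and CSE-KO counts of 554 and 145. Its WT levels were 2520 and 726 CPM and its CSE-KO levels 811 and 625 CPM, so that WT replicate 1 alone stood apart. The difference was -1.17 (log2, standard error 0.55, edgeR adjusted p = 0.976). It was 0.06 without WT replicate 1 and -1.69 without WT replicate 2, in fits where WT has a single library and no spread of its own. The same region carried H3K4me3 in every library of that mark, with WT counts of 192 and 84 and CSE-KO counts of 70 and 124. The second, of the CSE-KO H3K27ac replicate 1 list, had WT levels of 1030 and 581 CPM and CSE-KO levels of 1250 and 1350 CPM, which do not overlap. The difference was 0.69 (log2, standard error 0.54, edgeR adjusted p = 0.976), and 1.22 without WT replicate 1. H3K4me3 was nearly missing there, with no WT count and CSE-KO counts of 10 and 4.

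The third, of the WT H3K27ac replicate 1 list, had WT levels of 644 and 377 CPM and CSE-KO levels of 622 and 677 CPM. The fourth, of the CSE-KO H3K27ac replicate 1 list, had WT levels of 598 and 367 CPM and CSE-KO levels of 520 and 388 CPM. In both the groups overlap, and the log2 fold changes were 0.35 and -0.08 (standard error 0.52 each). The fifth, of the same list as the fourth, had WT levels of 431 and 181 CPM and CSE-KO levels of 561 and 668 CPM, a difference of 1.00 (log2, standard error 0.53, edgeR adjusted p = 0.976). In all 5 the WT replicate 1 level was above that of WT replicate 2.

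The precision of a single region set what could be seen. The standard error of the log2 fold change had a median of 0.73 over the kept regions, a factor of 1.66, and of 0.57 over the 2497 regions with 10 counts in all 4 libraries. The 95% interval, from the normal distribution, lay wholly within a 2-fold change in both directions at 12 of 23593 regions (0.0509%). It lay within a 4-fold change at 11238 regions (47.6%), and at 2342 (93.8%) of those with 10 counts in all 4. A missed threshold therefore does not show that H3K27ac was alike in both genotypes at a region.

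Differences between genotypes were set beside those between replicates on the thinned counts, where all 4 libraries are of like depth. Among the 11127 regions, the WT replicates differed by more than 2-fold at 36.7%, the CSE-KO replicates at 22.5%, and the 4 pairs of a WT with a CSE-KO library at 28.2% to 32.5%. The typical size of the difference, as the median of the absolute log2 ratio, was 0.727 between the WT replicates, 0.536 between the CSE-KO replicates and 0.598 to 0.662 across genotypes. The WT replicates thus differed more than any pair across genotypes, and the CSE-KO replicates less. Of these regions, 73.8% and 69.3% reached 10 counts in CSE-KO replicates 1 and 2, against 58.0% and 62.6% in WT replicates 1 and 2. Lower counts bring more counting noise, and the part of the rule in this order was not tested. In the 1993 regions with 10 counts in all 4 libraries after thinning, the order was the same: 12.2% of regions differed by more than 2-fold between WT replicates, 5.67% between CSE-KO replicates and 7.07% to 9.18% across genotypes. Spearman's coefficient was taken across regions, which are not independent replicates. Over the 1993 regions it was 0.388 for the WT pair, 0.526 for the CSE-KO pair and 0.466 to 0.504 across genotypes. Over the 11127 regions it was lower, at 0.0902 for the WT pair, 0.233 for the CSE-KO pair and 0.116 to 0.209 across genotypes. The chi-square per degree of freedom between replicates was 3.25 in WT and 2.25 in CSE-KO over the kept regions, a value that the filter on counts can itself raise, and neither pair looked like 1 library deposited again.

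**Figure D4:**
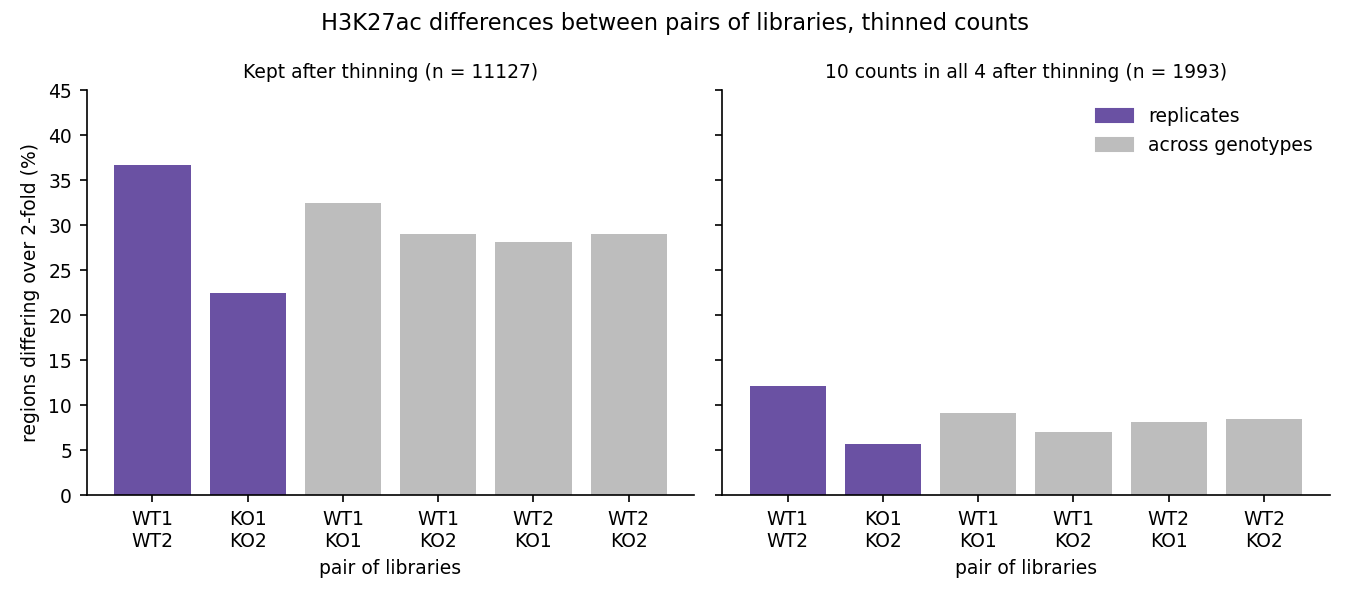
Share of regions whose H3K27ac differed by more than 2-fold (y axis, percent) in each of the 6 pairs of libraries (x axis, KO for CSE-KO) after thinning, over the 11127 kept regions (left) and the 1993 regions with 10 counts in all 4 libraries (right). In both panels the WT replicates have the highest bar and the CSE-KO replicates the lowest.

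The direction of the fold change followed the list in which a region stands. In the list of WT H3K27ac replicate 1 the median log2 fold change was -0.94 (1668 regions) and in that of WT H3K27ac replicate 2 it was -0.76 (1394 regions). The lists of CSE-KO H3K27ac replicates 1 and 2 had medians of 0.30 (6547 regions) and 0.83 (1930 regions). A list favours the library in which its regions were found, so the choice of regions fixes this order, and it is given as a description. After thinning, with the rule applied again, the medians moved toward 0, to -0.64, -0.58, 0.23 and 0.24. The change was largest in the list of CSE-KO H3K27ac replicate 2. On the same thinned counts with the 23593 regions left as they were, the median was -0.86 over the WT H3K27ac lists and 0.41 over the CSE-KO H3K27ac lists. As deposited these were -0.85 and 0.41, so the move was seen only where the rule was applied again. Of the 17 calls, 2 stood in the WT H3K27ac lists, both lower, and 6 in the CSE-KO H3K27ac lists, 5 higher and 1 lower.

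Regions in the lists of the other marks were not found through an H3K27ac library, but they too had to meet the rule on H3K27ac counts. That rule rested largely on CSE-KO replicate 1. In these lists the genotype of the library made little difference: the medians were -0.27 and -0.19 in the WT H3K23ac lists and -0.19 in each of the CSE-KO H3K23ac lists. In the H3K4me3 lists they were -0.28 and -0.20 for WT and -0.14 and -0.20 for CSE-KO. Together these lists held 12054 kept regions with a median of -0.21, and 2 of their regions rose and 7 fell. With TMM factors taken from these lists themselves the medians were -0.07 for H3K23ac and for H3K4me3 lists. Without the filter on counts they were 0.10 for H3K23ac and 0.14 for H3K4me3 lists. Their level against 0 thus depends on the scaling and on the filter. A fit of these regions alone called 17, 7 higher and 10 lower, of which 9 were among the 17 calls of the fit over all kept regions. After thinning, edgeR called 0 of their 5691 regions, with 45 higher and 171 lower at an unadjusted p under 0.05. This split turns with the scaling: in the fit of these regions alone, before thinning, it was 202 higher to 159 lower, against 97 to 183 in the fit over all kept regions.

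**Figure D5:**
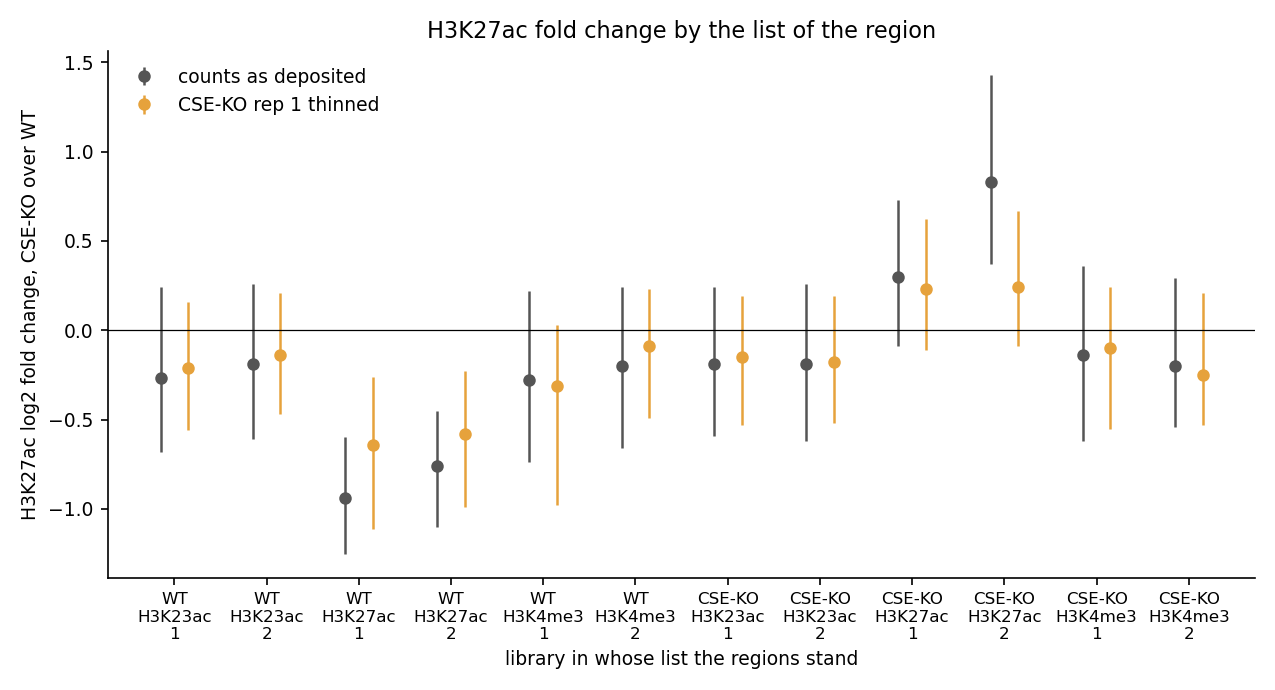
Log2 fold change of H3K27ac (CSE-KO over WT, y axis) by the library in whose list the regions stand (x axis), as median (point) and quartiles (line), as deposited and after thinning of CSE-KO replicate 1. The WT H3K27ac lists lie lowest (-0.94 and -0.76) and the CSE-KO H3K27ac lists highest (0.30 and 0.83), and the 8 lists of the other marks lie between -0.28 and -0.14 as deposited.

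Most of the kept regions had few or no counts of the other marks. H3K4me3, counted by the same rule of 10 counts in 2 of its 4 libraries, was present at 1989 regions (8.43%), and 8211 (34.8%) had no H3K4me3 count at all. In the H3K27ac lists the share with H3K4me3 was 2.22%, in the H3K23ac lists 12.7% and in the H3K4me3 lists 34.9%. The H3K4me3 libraries held 396441 to 563755 counts in all, and the part of depth in these shares was not tested. Nor was the part of the list, or of how reads that overlap several regions were counted. In the whole table, 47.0% of the regions had no count in any library, so a missing count need not mean a missing mark. H3K23ac was present by the rule at 4157 regions (17.6%). It had no count at 61.3% of the kept regions in the H3K27ac lists and at 2.46% of those in the H3K23ac lists. Both marks were present at 1377 regions (5.84%) and neither at 18824 (79.8%).

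Regions with H3K4me3 had a median H3K27ac level of 43.9 CPM, against 36.2 CPM without it, and their log2 fold changes spread less, with an SD of 0.68 against 0.88. Their median log2 fold changes were -0.08 and -0.06. Of the 1989 regions with H3K4me3, 3 fell and 0 rose, and of the 21604 without it 7 fell and 7 rose. Of the 4157 regions with H3K23ac, 1 rose and 0 fell, and of the 19436 without it 6 rose and 10 fell. Over all kept regions the share called was 0.0721%, and calls this few give no comparison of the groups. Regions with H3K23ac had a median of 45.6 CPM and an SD of 0.60, against 35.3 CPM and 0.91 without it. Higher levels bring less counting noise, and the part of level in these spreads was not tested. By level alone, the SD of the log2 fold changes was 1.22 in the 5899 kept regions of lowest level (14.4 to 29.4 CPM) and 0.62 in the 5898 of highest level.

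Across the 17 called regions the other marks gave no common pattern. Among the 7 that rose, 3 had no count in the 8 libraries of H3K23ac and H3K4me3. Summed over these 8 libraries, 2 of the 7 had more counts in CSE-KO than in WT and 1 had more in WT. Of the 10 that fell, 6 had more counts of the other marks in WT and 3 had more in CSE-KO. The sums are of raw counts, with no allowance for the depth of those libraries. They also depend on the list, which favours its own library. The called regions of the WT H3K23ac replicate 1 list all had more counts in WT. Those that rose in the CSE-KO H3K23ac lists had more in CSE-KO. The shares over all kept regions are not given here, so these numbers are a description only.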

How the data were processed

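The authors deposited 1 table of raw counts, with no normalization, for 12 ACT-seq libraries. Tools named in the submitters' processing notes are Subread, ChIPseeker 1.38.0, edgeR 4.0.16 and R 4.3.3, beside GRCm39 and mm10 as builds, without roles. Not given in the sources used here are the aligner, the peak caller and any removal of duplicates. Regions have no coordinates in the table. The list number in a region's name was read as the library number in the labels, which no label states; each of the 12 lists held a larger part of the counts of its like-numbered library than of any other library.

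The 4 H3K27ac libraries were tested by edgeR's two-sided quasi-likelihood test (glmQLFit, glmQLFTest; same versions) with TMM factors, on regions with 10 or more counts in at least 2 libraries, with Benjamini-Hochberg adjustment over all of them and 0.05 as threshold; positive fold changes are higher in CSE-KO. Standard errors are the log2 fold change over the root of the F statistic. Thinning was binomial, with 4 further draws. Ratios between pairs of libraries add 0.5 counts. The edgeR test was also run on simulated data of this depth, in which every region had the spread of the trend at its level. There it called no unchanged region, missed the small changes and found only part of the large ones. That spread is the one the fit assumes, so the simulation does not give the rate of false calls among regions that vary more. DESeq2 1.42.0 and limma 3.58.1 served as other tools, and Python 3.11.15 made summaries.

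Members and rules were chosen with earlier results of these data known. Described are all regions past the threshold, the 3 of lowest p per direction in the H3K27ac lists and in the other lists, and the 5 of highest mean CPM; at most 2 names per direction are printed. Depth ran from 1110254 to 4242014 counts, and intervals cover counting error only. Alternatives were other scalings, filters and tools, the replicate number as a block, and each library left out.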

Additional observations from a re-analysis of the deposited data

How the results depend on the processing

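Against 17 calls (7 higher, 10 lower), thinning of CSE-KO replicate 1 gave 0 in the first draw and 0 in each of 4 further draws (edgeR, 428 to 445 regions at an unadjusted p under 0.05), 11 when the regions were kept as before thinning, and thinning of all 4 libraries gave 2. Total counts as scaling gave 11, no filter 5, a filter of 10 counts in all 4 libraries 0 of 2497 (edgeR, 193 at an unadjusted p under 0.05), filterByExpr 3, and mean CPM at or above the median 3. DESeq2's Wald test gave 0 (257 at an unadjusted p under 0.05), regions of the H3K27ac lists alone 5. Fits without 1 library ranged from 0 to 187 calls; in them the lone sample is assumed to vary like the other group. DESeq2 size factors gave 17, of which 16 were the same regions, and TMM on the other lists 13, of which 12 were. Unadjusted, those scalings split 405 higher to 430 lower and 721 to 224. Chosen after seeing the data, robust spread gave 13 calls, all among the 17, and limma-voom 17, 2 higher and 15 lower, of which 3 were among the 17. The cause of these differences was not tested.

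The replicate block gave 3 calls, all among the 17 (peak9_212007, peak9_158291 and peak1_20257). Same-numbered libraries did not deviate together (r = 0.00808 over 23593 regions), so the numbers were not taken as pairs.

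No called region changed direction in any alternative in which it was tested. The alternatives reuse the counts by which the 17 regions were picked, so this is a description only. The 7 that rose did not meet the rule in the fits without CSE-KO replicate 1 or 2 and were not tested there. The region of highest level reversed to 0.06 without WT replicate 1 and ran down to -1.69 without WT replicate 2. The fourth by level, at -0.08, reversed to 0.04 with TMM on the other lists, 0.08 without filter, 0.39 without WT replicate 1 and 0.26 without CSE-KO replicate 2, and was -0.30 without CSE-KO replicate 1.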

Other observations

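Along the running order of the lists, whose meaning the table does not state, the H3K27ac counts of CSE-KO and WT were set side by side. The list of CSE-KO H3K27ac replicate 1 was split into 40 equal parts by running number, each with 58193 to 72557 counts in the 4 libraries, and the share of the list's counts in each part was compared. The difference of CSE-KO from WT in mean log2 share ran from -0.06 to 0.10, against -0.21 to 0.20 between the WT replicates and -0.14 to 0.10 between the CSE-KO replicates. In the 4 H3K23ac lists, split in the same way into 160 parts, the difference of CSE-KO from WT ran from -0.15 to 0.18, that between the WT replicates from -0.40 to 0.34, and that between the CSE-KO replicates from -0.13 to 0.16. The difference between genotypes is one of means over 2 libraries, which narrows it beside that of single libraries, so the ranges are not compared. No test was run on these parts.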
